A study of Mus musculus with 15 samples.

Results

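T and NK cell genes were examined across the 4 donor genotypes of a serial transplantation study of telomerase deficiency. The set comprised 10 genes chosen by name, of 45706 genes counted, and each was matched by symbol to its Ensembl identifier in GENCODE mouse vM21. All 10 were present in the count table and passed the filter on low counts, which kept 18983 genes. RNA was taken from lineage-negative bone marrow cells of the femur of secondary recipients, 16 weeks after the second transplantation. Of 15 libraries, 3 were WT, 4 were Puma-/-, 4 were G3 mTerc-/-Puma+/+ and the last 4 carry the label G3 mTerc-/-Puma-/-, where G3 is the third generation bred without the telomerase RNA component mTerc and Puma is the pro-apoptotic BCL-2 family gene Bbc3. Donors were young adult C57BL/6 J mice, positive for CD45.2, that carried their deletions in the whole body from the germline, and donor LSK cells (Lin-, Sca-1+, c-Kit+ stem and progenitor cells) were passed through lethally irradiated CD45.1 B6.SJL recipients. WT and Puma-/- cells were transplanted in the same way as the mTerc-/- cells, so every genotype here had been through serial transplantation. The labels describe magnetic separation of lineage-negative cells and name no selection for CD45.2, so the recipient's own cells may be included in the RNA. The labels do not say that replicates came from separate animals, and p-values therefore measure the spread between these libraries, which may be technical.

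T cells and NK cells are lymphocytes that share much of their killing machinery. T cells recognise antigen through a receptor that signals through the CD3 chains, whereas NK cells use germline-encoded receptors such as NKp46. Both respond to interleukin-2 and interleukin-15 through a shared receptor chain, and both store perforin and granzymes in cytotoxic granules. Mature T and NK cells are rare in healthy marrow and are meant to be removed by lineage depletion, in which cells that carry antibody-bound surface markers are held back on a column. CD3ε and NK-1.1 are among the lineage antibodies that the study lists, together with B220, CD11b, Gr-1 and Ter-119. In bulk RNA, more cells of a type and more RNA per cell cannot be told apart.

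Library totals ran from 102790519 to 158367059 counts. Replicate 2 labelled G3 mTerc-/-Puma-/- stood apart from the other libraries, with 3.45 normalized CPM of the progenitor receptor gene Flt3 against 57.2 to 187 elsewhere. This library was left out of the fit, following the study's heatmaps, and its values are given beside the others. The study's statistics section, however, states that no data were excluded. Puma itself (Bbc3) was lower in Puma-/- (5.04 to 6.83 normalized CPM) than in WT (9.71 to 23.6), but the 4 libraries labelled G3 mTerc-/-Puma-/- held 13.5 to 17.1, so their label was not borne out by this gene. The female-specific RNA Xist ran from 466 to 868 normalized CPM in Puma-/-, from 1.73 to 418 in WT, from 0.177 to 89.0 in G3 mTerc-/-Puma+/+ and from 0.388 to 663 in the libraries labelled G3 mTerc-/-Puma-/-, so Xist differed with genotype. Levels are given as CPM, counts scaled to a common library total, with TMM factors over all 15 libraries. Fold changes are from edgeR's quasi-likelihood fit to 14 libraries, with p-values adjusted by Benjamini-Hochberg over all genes and called below 0.05.

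No T or NK cell gene was called in any comparison of genotypes. The count was 0 by edgeR, with 2 of 70 unadjusted p-values below 0.05, and also 0 by DESeq2 and by limma-voom. For each of the 10 genes, the libraries of at least 1 genotype differed among themselves by a larger factor than the highest and lowest genotype means did. The 10 genes fell into patterns that ran across genotypes: Cd3e, Il2rb, Ccl5 and Prf1 were high in the same few libraries, Ncr1 and Gzma followed each other, and Nkg7 went its own way. Gata3, the gene with the largest share of its variation between genotypes, was the only one with an unadjusted p below 0.05, in Puma-/- against WT and in G3 mTerc-/-Puma+/+ against Puma-/-.

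**Figure D1:**
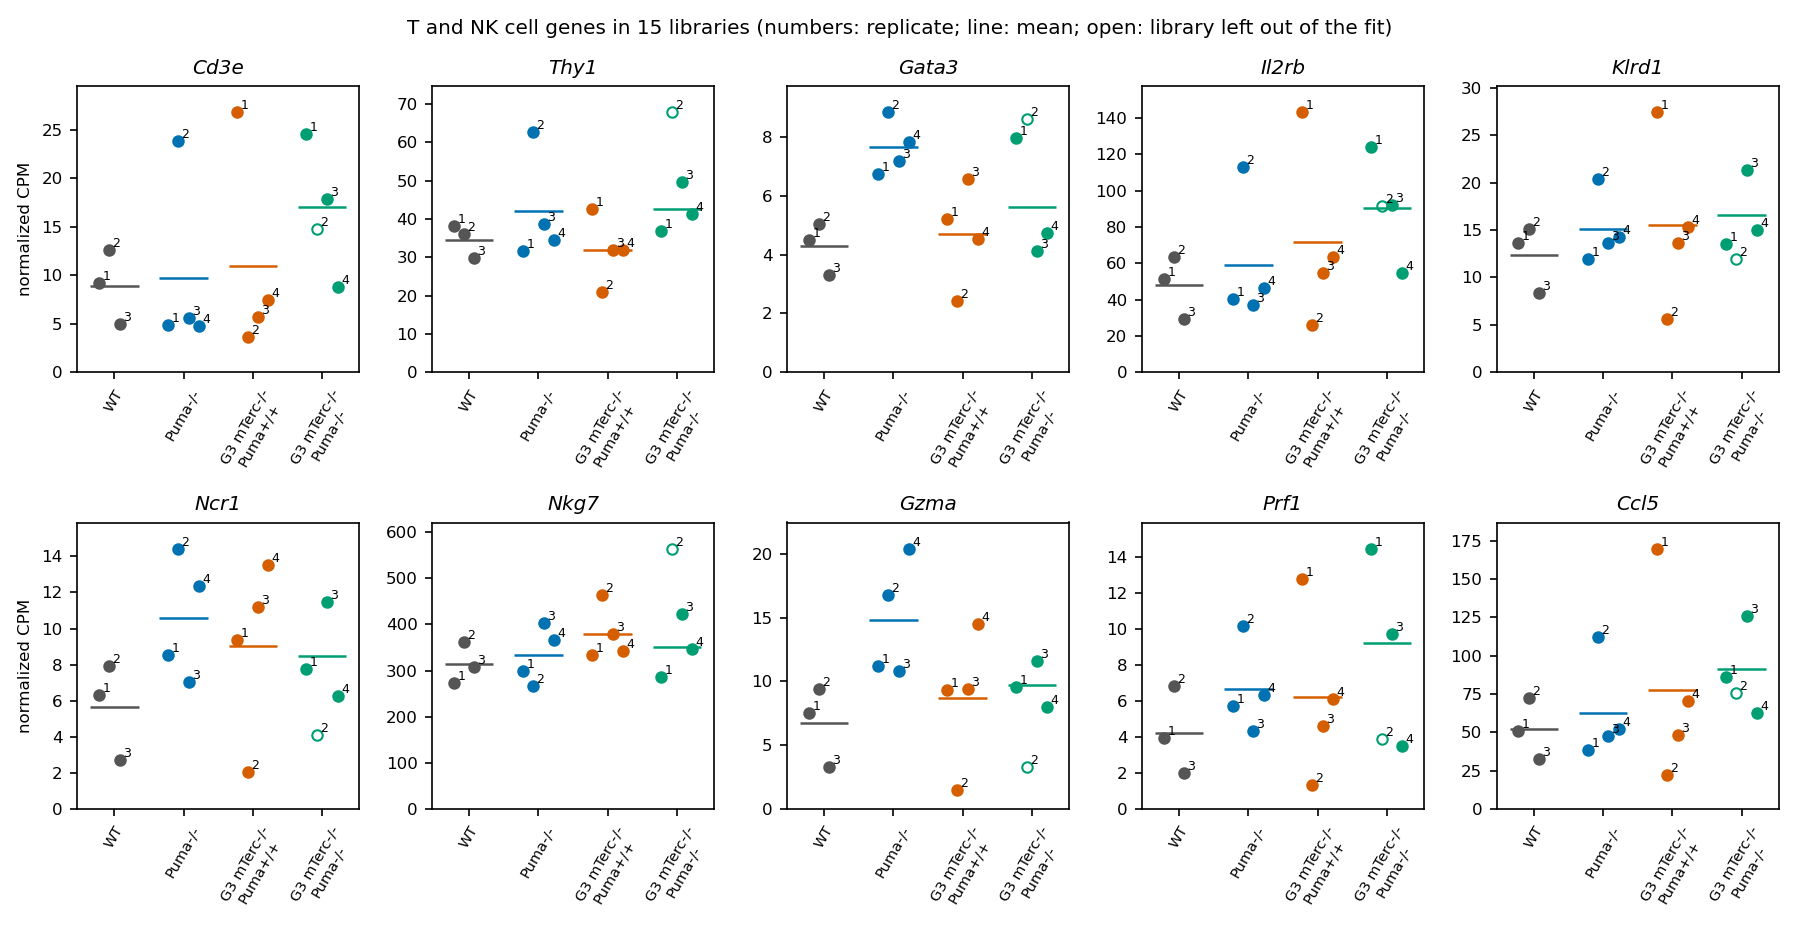
Level of each T and NK cell gene (normalized CPM, linear axis from 0) in the 15 libraries, with 1 point per library, its replicate number beside it and a line at the mean of each genotype. The open point is replicate 2 labelled G3 mTerc-/-Puma-/-, left out of the fit and of the mean. Single libraries of a genotype lie far above the rest for Cd3e, at 23.9 in Puma-/- and 26.9 in G3 mTerc-/-Puma+/+.

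Cd3e (ENSMUSG00000032093, chromosome 9 of GRCm38 from 44998740 to 45009627, minus strand) encodes the CD3ε chain of the T cell receptor complex, a target of the depletion. Its level was 9.22, 12.6 and 4.97 normalized CPM in WT replicates 1 to 3. In Puma-/- replicates 1 to 4 it was 4.90, 23.9, 5.56 and 4.79, and in G3 mTerc-/-Puma+/+ replicates 1 to 4 it was 26.9, 3.61, 5.72 and 7.50. The libraries labelled G3 mTerc-/-Puma-/- held 24.6, 17.9 and 8.82 in replicates 1, 3 and 4, and 14.8 in replicate 2. A single library in each of Puma-/- and G3 mTerc-/-Puma+/+ was thus several times higher than its replicates, and all genotypes overlapped. The means were, in ascending order, those of WT (8.93 ± 3.83, SD, n = 3), Puma-/- (9.78 ± 9.40, n = 4), G3 mTerc-/-Puma+/+ (10.9 ± 10.7, n = 4) and the libraries labelled G3 mTerc-/-Puma-/- (17.1 ± 7.93, n = 3). Counts ran from 367 to 3910 per library, and counting error was therefore small beside this spread. An antisense gene shares 135 exonic bases with Cd3e (3.31% of its exonic length), and the strand setting of the counting is not given in the sources used here.

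Thy1 (ENSMUSG00000032011, chromosome 9 from 44043384 to 44048579, plus strand) encodes the surface glycoprotein Thy-1, carried by T cells, some NK cells and innate lymphoid cells and, in mice, also by some stem cells. It stood at 38.2, 36.0 and 29.8 normalized CPM in WT and at 31.7, 62.9, 38.8 and 34.6 in Puma-/-. It stood at 42.6, 21.0, 31.9 and 32.0 in G3 mTerc-/-Puma+/+ and at 36.9, 49.8 and 41.2 in replicates 1, 3 and 4 labelled G3 mTerc-/-Puma-/-, where replicate 2 held the highest value of all, 67.9. Thy1 varied less than Cd3e: within genotypes its SD was 0.36 on the log2 scale, against 1.02 for Cd3e and a median of 0.24 over the 18983 genes kept. All genotypes overlapped.

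Il2rb (ENSMUSG00000068227, chromosome 15 from 78479256 to 78495271, minus strand) encodes the β chain through which interleukin-2 and interleukin-15 signal in T and NK cells. Its level was 51.3, 63.5 and 29.1 normalized CPM in WT, 40.2, 113, 36.9 and 46.2 in Puma-/-, and 143, 26.1, 54.6 and 63.7 in G3 mTerc-/-Puma+/+. Replicates 1, 3 and 4 labelled G3 mTerc-/-Puma-/- held 124, 92.3 and 54.8, and replicate 2 held 91.7. The high libraries were those with high Cd3e. Ccl5 (ENSMUSG00000035042, chromosome 11 from 83525778 to 83530518, minus strand), a chemokine stored and released by memory T cells and NK cells, was 50.9, 72.4 and 32.5 in WT, 38.7, 112, 47.3 and 52.1 in Puma-/-, and 170.0, 21.8, 48.1 and 70.1 in G3 mTerc-/-Puma+/+. It was 86.1, 126 and 62.5 in replicates 1, 3 and 4 labelled G3 mTerc-/-Puma-/- and 75.8 in replicate 2. For Il2rb and for Ccl5 the order of genotype means was that of Cd3e, and again no genotype was separate from another.

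Prf1 (ENSMUSG00000037202, chromosome 10 from 61297833 to 61304680, plus strand) encodes perforin, which opens the membrane of a target cell. It was 3.91, 6.81 and 1.98 normalized CPM in WT, 5.70, 10.2, 4.34 and 6.34 in Puma-/-, and 12.8, 1.32, 4.59 and 6.11 in G3 mTerc-/-Puma+/+. Replicates 1, 3 and 4 labelled G3 mTerc-/-Puma-/- held 14.5, 9.73 and 3.46, and replicate 2 held 3.88. Within G3 mTerc-/-Puma+/+ the highest library exceeded the lowest 9.69-fold, whereas the highest genotype mean exceeded the lowest 2.18-fold.

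Gzma (ENSMUSG00000023132, chromosome 13 from 113093825 to 113100981, minus strand) encodes granzyme A, a serine protease of cytotoxic granules that is abundant in NK cells. Gata3 had the most comparisons with an unadjusted p below 0.05 and Gzma the next lowest p, and the promoters of these genes are shown for that reason, from RefSeq on GRCm38.p6, as 250 bases before to 50 bases after the annotated start. Letters in capitals match a motif of a factor family active in lymphocytes (the T-box motif TCACAC, the RUNX motif TGTGGT, the ETS motif GGAAGT or AGATAA for GATA factors, each on both strands).
Gzma, chr13:113100932-113101231, minus strand: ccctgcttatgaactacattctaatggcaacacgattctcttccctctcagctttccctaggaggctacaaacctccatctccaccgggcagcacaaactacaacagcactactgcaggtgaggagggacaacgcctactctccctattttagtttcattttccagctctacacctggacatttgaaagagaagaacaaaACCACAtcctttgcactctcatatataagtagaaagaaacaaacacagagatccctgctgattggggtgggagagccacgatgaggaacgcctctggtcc
Gata3, chr2:9878551-9878850, minus strand: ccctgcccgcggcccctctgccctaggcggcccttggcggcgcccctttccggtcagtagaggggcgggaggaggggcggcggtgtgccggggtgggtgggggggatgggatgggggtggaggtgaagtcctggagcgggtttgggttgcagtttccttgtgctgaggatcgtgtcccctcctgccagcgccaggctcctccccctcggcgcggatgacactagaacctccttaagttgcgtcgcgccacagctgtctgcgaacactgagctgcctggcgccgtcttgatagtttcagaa
The Gzma window held a single match, to the RUNX motif on the opposite strand, 50 to 45 bases before the start, and the Gata3 window held none. No match overlapped another. Of the 6 T and NK cell genes with a promoter in the table, 4 held the RUNX motif (Gzma, Ncr1, Nkg7 and Prf1), 2 the ETS motif (Cd3e and Prf1), 2 the T-box motif (Ncr1 and Nkg7) and 0 the GATA motif. Over 27025 promoters of this length, 16.9% held the RUNX motif, 24.1% the ETS motif, 14.4% the T-box motif and 11.4% the GATA motif. A match describes the letters and does not show binding.

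The level of Gzma was 7.55, 9.40 and 3.26 normalized CPM in WT and 11.2, 16.7, 10.8 and 20.4 in Puma-/-. It was 9.29, 1.5, 9.43 and 14.5 in G3 mTerc-/-Puma+/+, and 9.55, 11.6 and 7.96 in replicates 1, 3 and 4 labelled G3 mTerc-/-Puma-/-, with 3.30 in replicate 2. Every Puma-/- library lay above every WT library, and the other genotypes overlapped with both. The fitted log2 fold change in Puma-/- against WT was 1.14 (SE 0.55, 95% interval -0.04 to 2.31, adjusted p = 0.507 by edgeR), which was not called. With Xist as a covariate it was 0.88. The exact two-sided permutation test of mean log2 CPM gave p = 0.0571 for this comparison, the smallest that 3 against 4 libraries allow. Libraries without overlap always give the smallest value, so this test adds nothing to the separation.

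Ncr1 (ENSMUSG00000062524, chromosome 7 from 4337724 to 4345164, plus strand) encodes NKp46, an activating receptor that defines NK cells in mice. Its level was 6.31, 7.92 and 2.68 normalized CPM in WT, 8.51, 14.4, 7.05 and 12.4 in Puma-/-, and 9.36, 2.07, 11.2 and 13.5 in G3 mTerc-/-Puma+/+. Replicates 1, 3 and 4 labelled G3 mTerc-/-Puma-/- held 7.76, 11.5 and 6.28, and replicate 2 held 4.08. WT had the lowest mean (5.64 ± 2.68, SD, n = 3) and Puma-/- the highest (10.6 ± 3.40, n = 4), but their libraries overlapped. Klrd1 (ENSMUSG00000030165, chromosome 6 from 129591782 to 129598775, plus strand) encodes CD94, the partner chain of the NKG2 receptors on NK cells and some activated T cells. It was 13.6, 15.1 and 8.40 in WT, 12, 20.4, 13.6 and 14.3 in Puma-/-, 27.4, 5.58, 13.6 and 15.3 in G3 mTerc-/-Puma+/+, and 13.5, 21.3 and 15 in replicates 1, 3 and 4 labelled G3 mTerc-/-Puma-/-, with 12 in replicate 2. Only 8.20% of the variation of Klrd1 (sum of squares of log2 CPM, 14 libraries) lay between genotypes, the lowest share among the 10 genes.

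Nkg7 (ENSMUSG00000004612, chromosome 7 from 43437073 to 43438249, plus strand) encodes a membrane protein of cytotoxic granules. It was the most abundant of the 10 genes and the least variable. Its level was 273, 361 and 308 normalized CPM in WT, 299, 267, 404 and 366 in Puma-/-, and 333, 464, 379 and 342 in G3 mTerc-/-Puma+/+. Replicates 1, 3 and 4 labelled G3 mTerc-/-Puma-/- held 285, 423 and 347, and replicate 2 held 565. Per kilobase of exon, its median over the 15 libraries was 380 normalized CPM, followed by 65.1 for Ccl5, 12.8 for Il2rb, 12.3 for Thy1, 10.6 for Klrd1, 9.37 for Gzma, 5.14 for Ncr1, 2.21 for Prf1, 2.16 for Cd3e and 1.31 for Gata3. On this scale Nkg7 stood far above the 9 other genes.

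Gata3 (ENSMUSG00000015619, chromosome 2 from 9857078 to 9890034, minus strand) encodes a transcription factor needed for T cell development and for group 2 innate lymphoid cells, which are tissue lymphocytes without antigen receptors. Its level was 4.48, 5.05 and 3.31 normalized CPM in WT and 6.74, 8.85, 7.18 and 7.82 in Puma-/-. It was 5.23, 2.41, 6.58 and 4.52 in G3 mTerc-/-Puma+/+, and 7.96, 4.13 and 4.74 in replicates 1, 3 and 4 labelled G3 mTerc-/-Puma-/-, with 8.61 in replicate 2. Every Puma-/- library lay above every WT and every G3 mTerc-/-Puma+/+ library, and the Puma-/- libraries were close together (7.65 ± 0.916, SD, n = 4). The log2 fold change was 0.84 in Puma-/- against WT (SE 0.30, 95% interval 0.19 to 1.49, unadjusted p = 0.0154, adjusted p = 0.421 by edgeR). In G3 mTerc-/-Puma+/+ against Puma-/- it was -0.71 (SE 0.28, 95% interval -1.30 to -0.11, unadjusted p = 0.0229, adjusted p = 0.216 by edgeR), and the exact two-sided permutation test gave p = 0.0286, the smallest that 4 against 4 libraries allow. Neither passed the adjusted threshold. Both comparisons share the Puma-/- libraries. In Puma-/- against WT the exact test gave p = 0.0571. Both exact p-values are the smallest possible and follow from the lack of overlap. Of 60 exact tests with 14 libraries, 1 was below 0.05. A neighbouring gene on the same strand shares 77 exonic bases with Gata3 and an antisense gene shares 155 (1.94% and 3.90% of its exonic length).

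Other markers also differed between Puma-/- and WT or G3 mTerc-/-Puma+/+, but not all of them followed Gata3 over the libraries. Pearson's r of Gata3 with the summed markers over 15 libraries (14 in brackets) was 0.95 (0.94) for group 2 innate lymphoid cells. It was 0.47 (0.61) for megakaryocytes, 0.34 (0.57) for basophils and mast cells and 0.22 (0.73) for stem and progenitor cells. For B cells it was 0.11 (0.09), and for plasmacytoid dendritic cells -0.01 (0.29). Xist also separated Puma-/- from WT and from G3 mTerc-/-Puma+/+. With Xist as a covariate the log2 fold change of Gata3 was 0.54 against WT and -0.29 for G3 mTerc-/-Puma+/+ against Puma-/-. The summed level of 12 markers of group 2 innate lymphoid cells was 78.1 to 95.7 normalized CPM in Puma-/-, against 47.6 to 70.5 in WT and 40.6 to 76.9 in G3 mTerc-/-Puma+/+. Of these 12, 10 passed the filter, whereas the cytokine gene Il5 and Calca did not. In Puma-/- against WT, 8 of the 10 had a higher fitted level, 2 at an unadjusted p below 0.05 (10.1% of all genes, in either direction). The summed level of 6 megakaryocyte markers was 353 to 582 in Puma-/-, against 139 to 299 in WT and 171 to 236 in G3 mTerc-/-Puma+/+. Of these markers, 6 of 6 were higher in Puma-/- than in WT at an unadjusted p below 0.05 (10.1% of all genes), and 0 were called. In G3 mTerc-/-Puma+/+ against Puma-/-, 4 of the 6 were called lower (0.801% of all genes, in either direction). The summed level of 8 basophil and mast cell markers was 2572 to 4103 in Puma-/-, against 1773 to 3658 in WT and 1343 to 2443 in G3 mTerc-/-Puma+/+, so that Puma-/- and WT overlapped. In G3 mTerc-/-Puma+/+ against Puma-/-, 7 of the 8 had an unadjusted p below 0.05 (17.1% of all genes), 1 of them higher and the others lower, and 0 were called. The summed level of 9 B cell markers was 73.9 to 86.6 in Puma-/-, against 66.1 to 71.9 in WT and 40.7 to 54.9 in G3 mTerc-/-Puma+/+. Of the 9, 3 were called lower in G3 mTerc-/-Puma+/+ than in Puma-/- (0.801% of all genes, in either direction). The summed level of 8 plasmacytoid dendritic cell markers was 250.4 to 283 in Puma-/-, against 214 to 271 in WT and 152 to 234 in G3 mTerc-/-Puma+/+, and that of 8 stem and progenitor markers was 511 to 670.3 in Puma-/-, against 487 to 534 and 394 to 582. In G3 mTerc-/-Puma+/+ against Puma-/-, 8 of the 8 plasmacytoid dendritic cell markers and 4 of the 8 stem and progenitor markers were lower at an unadjusted p below 0.05. The share over all genes was 17.1%, in either direction, and 0 of these markers were called. The part of sex and of these cell types in the result for Gata3 was not tested.

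**Figure D2:**
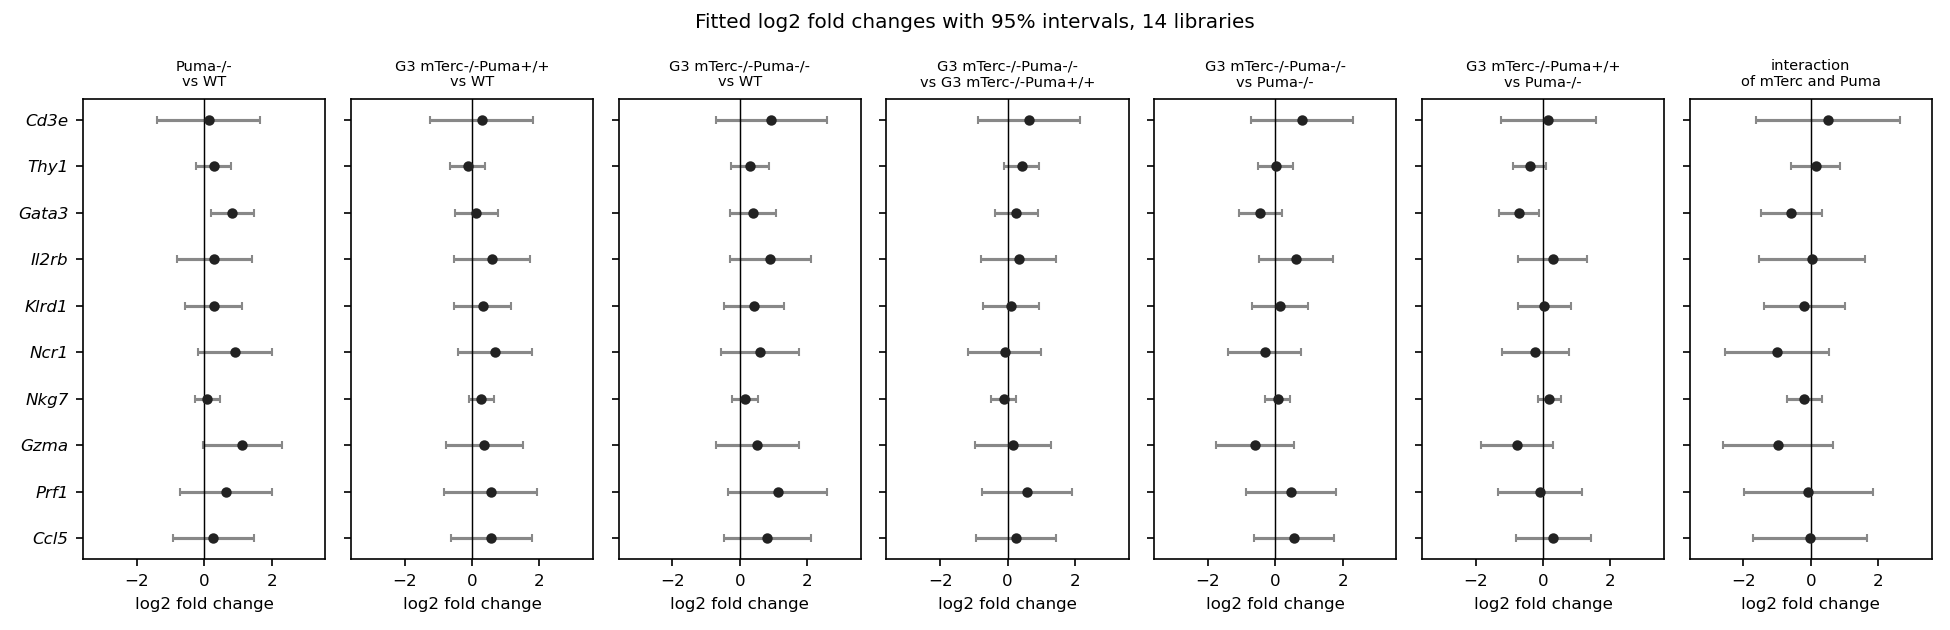
Fitted log2 fold change of each T and NK cell gene (points) with its 95% interval (bars) in 6 comparisons of genotypes and for the interaction of mTerc and Puma, from edgeR's fit to 14 libraries. The intervals of Gata3 in Puma-/- against WT and in G3 mTerc-/-Puma+/+ against Puma-/- do not hold 0, and the other 68 intervals do.

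The effect of Puma loss in mTerc-proficient cells was addressed by Puma-/- against WT. These genotypes also differed in sex genes: of 5 such genes, Xist among them, 4 were called lower in Puma-/- (0.079% of all genes, in either direction). Xist itself was higher in every Puma-/- library than in any WT library. The part of sex in this comparison was not tested. Of the 10 genes 0 were called (0.079% of all genes tested), 1 had an unadjusted p below 0.05 (10.1% of all genes) and 2 separated without overlap (9.70% of all genes). The fitted log2 fold changes were all above 0, from 0.09 to 1.14, with a median of 0.29 beside 0.00 over all genes tested, and SEs of 0.17 to 0.71. The effect of telomerase deficiency was addressed by G3 mTerc-/-Puma+/+ against WT, where 0 were called (0.0369% of all genes), 0 had an unadjusted p below 0.05 (3.86%) and 0 separated (4.07%). There 9 of 10 estimates were above 0, from -0.12 to 0.68, with a median of 0.35 beside 0.02 over all genes.

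For the libraries labelled G3 mTerc-/-Puma-/- against WT, 0 of the 10 genes were called (0.0632% of all genes), 0 had an unadjusted p below 0.05 (5.45%) and 0 separated (8.51%). Estimates ran from 0.16 to 1.12 with a median of 0.56, the largest of the 7 medians, beside 0.00 over all genes, and SEs of 0.18 to 0.76. The same libraries were also compared with G3 mTerc-/-Puma+/+, from which they differ in Puma status by label. Bbc3 was 13.5 to 17.1 normalized CPM in the former and 11.8 to 20.8 in the latter, so Puma loss was not seen in this RNA. The result is therefore given for the labels and cannot be read as a test of Puma loss. Again 0 genes were called (0.0738% of all genes), 0 had an unadjusted p below 0.05 (6.22%) and 0 separated (5.56%), with estimates of -0.11 to 0.65 and a median of 0.25 beside -0.01. Without G3 mTerc-/-Puma+/+ replicate 1, the library with the most Cd3e, the estimate for Cd3e in this comparison was 1.61 with an unadjusted p of 0.0234 and an adjusted p of 0.404 by edgeR, against an estimate of 0.65 with it.

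Against Puma-/-, the libraries labelled G3 mTerc-/-Puma-/- gave 0 calls among the 10 genes (0.306% of all genes), 0 unadjusted p below 0.05 (8.42%) and 0 separated (9.57%), with estimates of -0.61 to 0.81 and a median of 0.11. Without Puma-/- replicate 2, 2 genes had an unadjusted p below 0.05 in this comparison, with a lowest adjusted p of 0.547 by edgeR. G3 mTerc-/-Puma+/+ against Puma-/- gave 0 calls as well (0.801% of all genes), although 152 genes elsewhere in the table were called. In it 1 gene, Gata3, had an unadjusted p below 0.05 (17.1% of all genes) and separated (10.8% of all genes), estimates ran from -0.77 to 0.31, and the median was -0.03. The interaction of mTerc and Puma also rests on the label G3 mTerc-/-Puma-/-, which Bbc3 did not bear out. It gave 0 calls (0.0527% of all genes) and 0 unadjusted p below 0.05 (4.93%), with estimates of -1.0 to 0.51 and SEs of 0.24 to 1.0. Without G3 mTerc-/-Puma+/+ replicate 2, 3 genes had an unadjusted p below 0.05 for the interaction, with a lowest adjusted p of 0.542 by edgeR. Comparisons with a shared genotype use the same libraries and are not independent.

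These estimates leave room for sizeable differences. Of 70 values (10 genes in 7 comparisons), 51 had a 95% interval that reached past 1 on the log2 scale in at least 1 direction, and the widest limits were -2.61 and 2.66. Nkg7 was the most tightly bounded, with limits of -0.48 and 0.64 over the 6 pairwise comparisons, followed by Thy1, with -0.88 and 0.94. For Cd3e the limits were -1.40 and 2.58.

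The spread lay within genotypes. Between genotypes lay 46.8% of the sum of squares for Gata3, 29.3% for Gzma, 27.1% for Thy1, and 8.20% to 19.7% for the other 7 genes, beside a median of 24.2% over all genes kept. The SD within genotypes exceeded the median of all genes for 10 of 10 genes. It was above that of 97.1% of all genes for Cd3e, of 97.0% for Prf1, of 95.9% for Gzma and of 51.4% for Nkg7. G3 mTerc-/-Puma+/+ replicate 2 was the lowest of the 15 libraries for 9 of 10 genes, all but Nkg7, and G3 mTerc-/-Puma+/+ replicate 1 was the highest for 4 (Cd3e, Il2rb, Klrd1 and Ccl5).

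**Figure D3:**
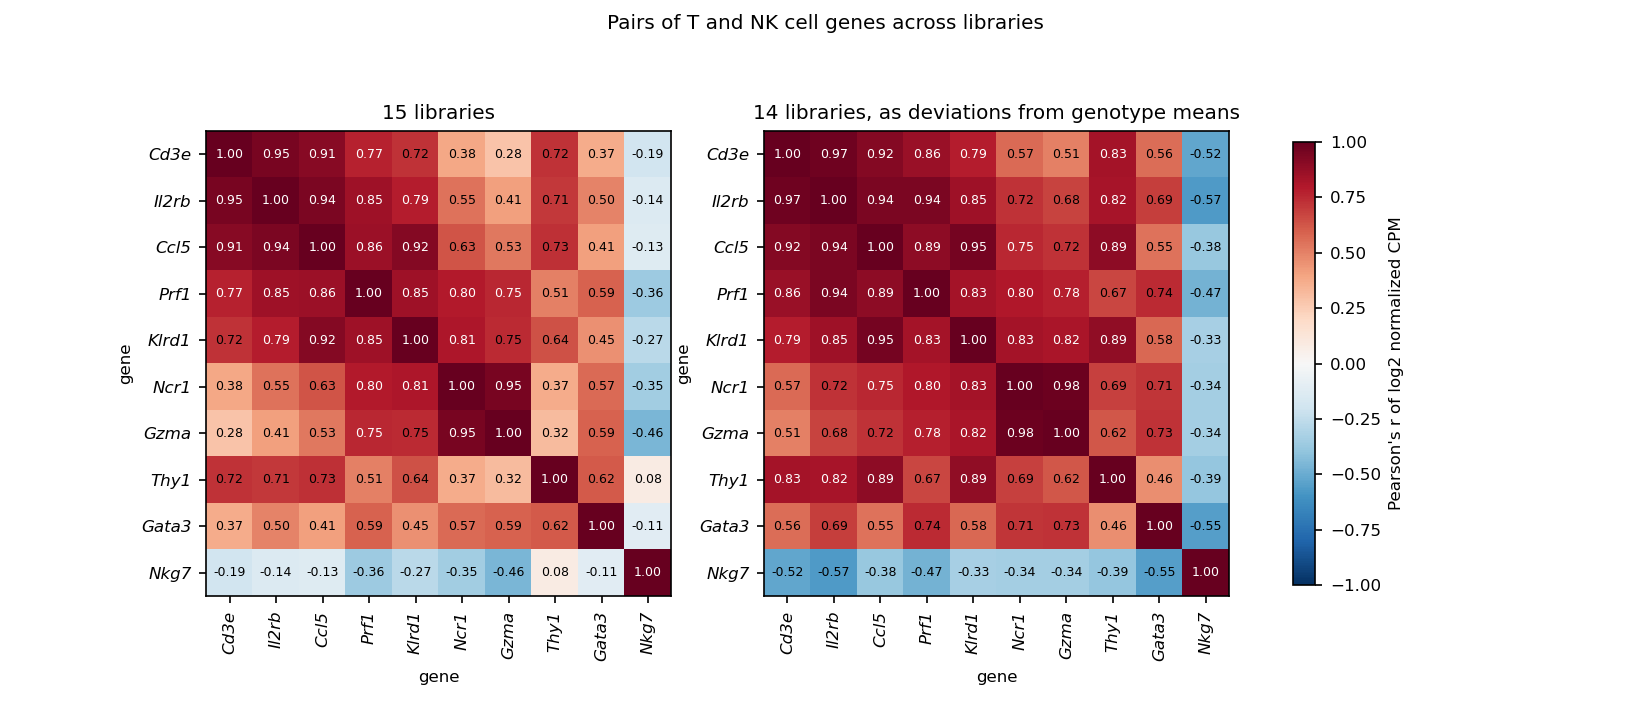
Pearson's r of log2 normalized CPM for each pair of T and NK cell genes, over 15 libraries (left) and over 14 libraries after subtracting each genotype's mean (right). Red is positive and blue negative. Cd3e, Il2rb and Ccl5 reach 0.91 to 0.95 with each other over 15 libraries, Ncr1 and Gzma reach 0.95, and Nkg7 is at or below 0.08 with every other gene.

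Across libraries the genes moved in groups, which is given as a description, since all genes of a library share its cells and its depth. Over the 15 libraries r was 0.95 for Cd3e with Il2rb, 0.91 for Cd3e with Ccl5 and 0.94 for Il2rb with Ccl5. It was 0.95 for Ncr1 with Gzma, but 0.38 for Cd3e with Ncr1 and 0.28 for Cd3e with Gzma. Prf1 and Klrd1 lay between these groups, with 0.77 and 0.72 for Cd3e and 0.80 and 0.81 for Ncr1. Klrd1 reached 0.92 with Ccl5, so the groups were not sharply divided. After each genotype's mean was subtracted the pairs stayed close, at 0.97 for Cd3e with Il2rb and 0.98 for Ncr1 with Gzma, so they did not rest on differences between genotypes. All 36 pairs without Nkg7 were positive over 15 libraries, and 8 of the 9 pairs with Nkg7 were negative.

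**Figure D4:**
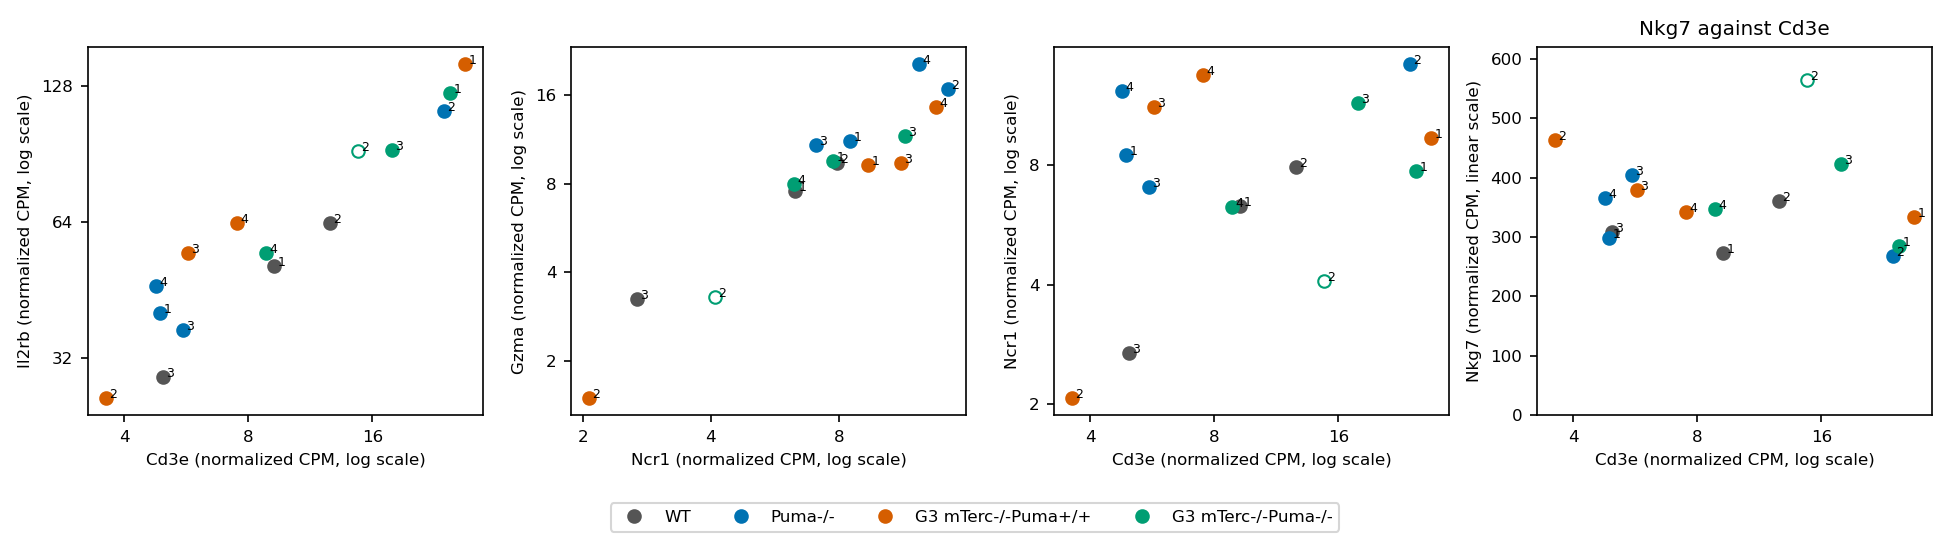
Levels (normalized CPM) of 4 pairs of genes in the 15 libraries, with colour for genotype, replicate numbers beside the points and the library left out of the fit as an open point. Axes are logarithmic except for Nkg7. Il2rb follows Cd3e and Gzma follows Ncr1 across genotypes, while Ncr1 runs from 2.07 to 12.4 among libraries with Cd3e below 6.

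The genes whose pattern across the 15 libraries was most like that of each of the 10 were then listed. For Cd3e they were Trac (r = 0.99), which encodes the constant region of the T cell receptor α chain, and Cd3g (0.98), another CD3 chain. For Il2rb the first was Eomes (0.97), a transcription factor of memory CD8 T cells and NK cells, and for Ccl5 it was Gimap7 (0.97). For Klrd1 it was Klrk1 (0.94), which encodes the receptor NKG2D, and for Ncr1 it was Gzma (0.95), followed by the NK receptor gene Klrb1b (0.93). Gzma was most like Nabp1 (0.95), Prf1 like Gm4841 (0.94), Thy1 like Gdf11 (0.94) and Gata3 like Hap1 (0.93). Nkg7 was most like Serpinb1a (0.97), an inhibitor of neutrophil serine proteases, and Ms4a3 (0.95), a marker of granulocyte and monocyte progenitors. These are the highest values of a search over all genes kept, which by itself yields some high values with 15 libraries.

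Nkg7 moved with neutrophil markers rather than with lymphocyte genes. The summed level of 8 neutrophil markers was 2532 normalized CPM in Puma-/- replicate 2, the lowest of all libraries for Nkg7 also, and 9792 in replicate 2 labelled G3 mTerc-/-Puma-/-, the highest for Nkg7 also. Over the 15 libraries r was 0.86 between Nkg7 and this sum on the log2 scale, and 0.78 without replicate 2 labelled G3 mTerc-/-Puma-/-. With the summed T cell receptor and signalling genes r was -0.19 for Nkg7, but 0.92 for Cd3e, 0.93 for Il2rb and 0.94 for Ccl5. Gata3 followed the group 2 innate lymphoid cell markers most closely, with r = 0.95 over 15 libraries, and the T cell genes less so, with 0.62. Gzma and Ncr1 had r of 0.66 and 0.65 with the group 2 markers over 15 libraries. Over 14 libraries r was 0.93 for Gzma and 0.86 for Ncr1, beside 0.94 for Gata3, so this tie was not particular to Gata3. Which cells carried these RNAs was not tested.

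Cell type markers were read for the lymphocytes themselves. Trac ran from 4.11 to 31.9 normalized CPM and Cd8a, a co-receptor of cytotoxic T cells, from 4.73 to 50.9, so T cell receptor RNA was present in every library after lineage depletion. Klrb1c, which encodes the depletion target NK-1.1, ran from 6.70 to 23.1. The pre-T cell receptor gene Ptcra did not pass the filter. Stromal and endothelial markers were also high in some libraries with much Cd3e: their summed level was 2774 in G3 mTerc-/-Puma+/+ replicate 1 against 385 to 755 in its replicates, and r with Cd3e over 15 libraries was 0.58. Other libraries with much Cd3e did not share this: the sum was 469 in Puma-/- replicate 2 and 685 in replicate 1 labelled G3 mTerc-/-Puma-/-. For the summed erythroid markers r with Cd3e was 0.52 over 15 libraries and 0.69 over 14. Their part in the pattern of Cd3e was not tested.

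Related genes of the same pathways gave few calls either. Of 23 T cell receptor and signalling genes tested, 0 were called in any of the 7 comparisons (0.0369% to 0.801% of all genes). Their median log2 fold change was 0.56 for the libraries labelled G3 mTerc-/-Puma-/- against WT and 0.50 against G3 mTerc-/-Puma+/+, with 23 and 22 of 23 estimates above 0, beside medians of 0.00 and -0.01 over all genes. Marker lists of other cell types moved in the same comparisons, in both directions. Their medians were 1.43 and 1.79 for 9 B cell markers and 0.99 and 1.64 for 8 plasmacytoid dendritic cell markers. They were 1.48 and 1.08 for 8 neutrophil markers, and 0.77 and 0.52 for 7 erythroid markers. Medians were 0.21 and 0.61 for 9 monocyte and macrophage markers, and 0.65 and 0.46 for 8 stromal and endothelial markers. By contrast, they were -0.81 and -0.59 for 6 megakaryocyte markers and -0.37 and -0.12 for 8 basophil and mast cell markers. For 8 stem and progenitor markers they were -0.05 and -0.03. In the comparison with G3 mTerc-/-Puma+/+, 3 of the B cell markers and 1 of the plasmacytoid dendritic cell markers were called higher (0.0738% of all genes called, in either direction). The part of these cell types in the medians of the T cell genes was not tested. The most abundant of the T cell receptor and signalling genes were Cd7 (17.4 to 77.0 normalized CPM), Cd27 (30.1 to 74.2), Ubash3a and the receptor kinase Lck (11.7 to 46.5). Of 23 NK cell receptors and adaptors, 0 were called (0.0369% to 0.801% of all genes), and medians ran from -0.08 to 0.27. The signalling adaptor Tyrobp, which myeloid cells share, led this list with 153 to 528 normalized CPM, and the activating receptor Klrk1 ran from 11.5 to 51.5.

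Of 14 further cytotoxic granule genes, 17 lymphoid transcription factors and 14 cytokine receptor genes, 0 were called in any comparison (0.0369% to 0.801% of all genes). The granule list was led by Cst7, Rab27a and Unc13d, which are also active in myeloid granules, and its summed level was close in all genotypes (600.3 to 642 in WT and 645 to 701 in the other 12 libraries). The transcription factor list was led by Runx3 and Id2, and Tbx21, the factor T-bet of NK and effector T cells, ran from 2.39 to 11.9. Of 12 chemokine and trafficking genes, 1 was called: S1pr5, a receptor through which NK cells leave the marrow. The call was in G3 mTerc-/-Puma+/+ against Puma-/-, where 0.801% of all genes were called, in either direction. S1pr5 was 2.68 to 6.57 normalized CPM in Puma-/- and 0.320 to 1.30 in G3 mTerc-/-Puma+/+, which the fit gave as -2.31 on the log2 scale (SE 0.45, adjusted p = 0.0429 by edgeR). The call was lost in 12 of 24 alternative fits, among them the fit to all 15 libraries (adjusted p = 0.0828 by edgeR) and the fit with Xist as a covariate (adjusted p = 0.187 by edgeR). The other losses were in the fit of the compared genotypes alone, under the replicate block, and without any 1 of Puma-/- replicates 1, 2 and 4, G3 mTerc-/-Puma+/+ replicates 1 to 4 and replicate 1 labelled G3 mTerc-/-Puma-/-.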

How the data were processed

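RNA from lineage-negative bone marrow cells was sequenced by the authors as stranded, poly(A)-selected, paired libraries. Reads were trimmed with Trimmomatic 0.38 and counted per gene with STAR 2.5.2b on GRCm38. The deposited values are raw counts per Ensembl gene. The annotation release and strand setting are not given in the sources used here. Groups follow the sample titles.

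Counts were analysed with edgeR 4.0.16 in R 4.3.3 (TMM factors 0.926 to 1.07, filterByExpr, all 4 genotypes in 1 quasi-likelihood fit, Benjamini-Hochberg adjustment over 18983 genes, threshold 0.05, common biological coefficient of variation 0.251). log2 CPM used a prior count of 2. A count of 0 allows up to 3 counts, at most 0.0296 normalized CPM, which covers counting error only. The fit was tested on simulated counts of 18726 genes, with 200 changed for the libraries labelled G3 mTerc-/-Puma-/- against G3 mTerc-/-Puma+/+. It called 92% of those at a log2 fold change of 1.5 and 98% at 2, with 4.52% of calls on unchanged genes. The changed genes were drawn at random from expressed genes. The SD within genotypes was above the median for 10 of the 10 T and NK cell genes, and above that of 97.1% of all genes for Cd3e. The rates may therefore not hold for these 10 genes. Alternatives were all 15 libraries, library size alone, size factors of DESeq2 1.42.0, other filters, DESeq2, limma-voom (limma 3.58.1), the compared genotypes alone, a replicate block, an Xist covariate and leaving out each library. The tool named in the study's methods is limma.

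The 10 genes and the related lists were chosen with earlier results of these data known. All 10 are given in every library, and a fold change with its error is given where the unadjusted p was below 0.05 or the libraries of both genotypes did not overlap. From related lists, up to 4 genes are named, called genes first and then the most abundant, and for each of the 10 genes up to 3 genes with the highest r. Further genes, namely Trac, Cd8a, Klrb1c, Tbx21, Ptcra, Il5, Calca and Flt3, were named after their values were seen. Promoters are from RefSeq, in which 6 of the 10 genes were matched. Of the identifiers, 563 had no symbol.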

Additional observations from a re-analysis of the deposited data

Results flagged for a closer look

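In the 30 groups of 4 libraries (10 genes in Puma-/-, G3 mTerc-/-Puma+/+ and the libraries labelled G3 mTerc-/-Puma-/-), 3 held a library that lay far from its replicates by Dixon's test on linear normalized CPM. Chance alone flags about 1 group in 20 only where values are normally distributed, which linear CPM need not be. The number of flags is therefore not set against that rate. Cd3e was 23.9 normalized CPM in Puma-/- replicate 2, against 4.79 to 5.56 in the other Puma-/- libraries. Il2rb was 113 normalized CPM in the same library, against 36.9 to 46.2 in its replicates. Cd3e was also 26.9 normalized CPM in G3 mTerc-/-Puma+/+ replicate 1, against 3.61 to 7.50 in its replicates. These flags share libraries and genes that move together, and are not independent.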

How the results depend on the processing

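The number of T and NK cell genes called was 0 in each of the 7 comparisons under every alternative that was run, including those that left out each library in turn. Over 24 alternative fits with 1670 gene and comparison values, the lowest adjusted p was 0.0973, for Gata3 in G3 mTerc-/-Puma+/+ against Puma-/- by DESeq2, and 70 unadjusted p-values were below 0.05. The log2 fold change of Gata3 in Puma-/- against WT ran from 0.54 to 0.97, that of Gata3 in G3 mTerc-/-Puma+/+ against Puma-/- from -0.92 to -0.29, and that of Gzma in Puma-/- against WT from 0.80 to 1.45, with the values nearest 0 for Gata3 under the Xist covariate. For S1pr5 it ran from -2.50 to -2.0, and 12 of 24 alternatives kept the call.

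Same-numbered libraries of different genotypes correlated at -0.253 to 0.182 in their deviations from genotype means. Libraries with different numbers were not compared in this way, so whether the numbers pair the samples cannot be told. With the replicate block, 0 of the 10 genes were called in each comparison, and the log2 fold changes of Gata3 and Gzma in Puma-/- against WT were 0.87 and 0.98. The number of the 10 genes with an unadjusted p below 0.05 ran from 0 to 3 in a comparison over all these fits. The lowest count of any of the 10 genes in a library was 134.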

Other observations

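The ratio of Cd3e to Ncr1 in normalized CPM ran from 0.388 in Puma-/- replicate 4 to 3.62 in replicate 2 labelled G3 mTerc-/-Puma-/-, a 9.35-fold range over the 15 libraries. Within a genotype it ran from 1.46 to 1.85 in WT, from 0.388 to 1.65 in Puma-/-, from 0.510 to 2.87 in G3 mTerc-/-Puma+/+ and from 1.41 to 3.62 in the libraries labelled G3 mTerc-/-Puma-/-. By contrast, the ratio of Gzma to Ncr1 ran from 0.724 to 1.65 and that of Il2rb to Cd3e from 4.72 to 9.65. The ratio of Nkg7 to Cd3e ran from 11.2 in Puma-/- replicate 2 to 128 in G3 mTerc-/-Puma+/+ replicate 2. These ratios were chosen after the values were seen, and no test was made of them.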
